A study of Mus musculus with 9 samples.

Results

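The Hox genes of the mouse lie in 4 clusters, and their chromatin was examined in alphaTC1 cells, a murine pancreatic alpha cell line, by ATAC-seq. In this assay a transposase cuts accessible DNA, and the counts in a region measure how open its chromatin is. Members were chosen by position alone. All 39 genes of the HoxA, HoxB, HoxC and HoxD clusters were taken, with every consensus region that overlaps the span of a cluster or the 50 kb on either side of it. This gave 39 of the 80827 regions in the table, 23 inside the spans and 16 in the flanks. The 39 regions do not pair off with the 39 genes, most of which hold no region.

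Cells had been transduced 5 days earlier with an shRNA against Smndc1, with an shRNA against Atrx or with empty vector, and each group has 3 libraries called individual biological replicates in the labels. Smndc1 encodes a splicing factor with a Tudor domain, and Atrx encodes a chromatin remodeler. All 3 groups share the same cell line and the transduction. The labels do not give the number of hairpins or clones, and an shRNA acts on RNA, so ATAC-seq does not check either knockdown. Regions are named here by cluster and by order of position, so that HoxB-r3 is the region with the third lowest coordinate of the HoxB cluster and its flanks, and has nothing to do with the gene Hoxb3.

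Hox genes encode homeodomain transcription factors that give cells their position along the body axis, and the order of the genes in a cluster follows the order in which they act from head to tail. In cells that do not use them, Hox clusters are a textbook target of Polycomb repression, which compacts chromatin and marks it with methylated H3K27. Trithorax proteins and H3K27 demethylases oppose that repression, retinoic acid induces the genes at the 3′ side of a cluster first, and PBX, MEIS and PKNOX proteins of the TALE class bind DNA together with Hox proteins.

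Library totals over all regions ran from 5.29 to 8.15 M counts. Replicate 3 of every group stood apart: the strongest 10% of regions held 38.5% to 38.8% of its counts and 43.3% to 48.8% of those of the other 6 libraries. Levels are given as CPM, the count over the library size in M after TMM scaling. All 7 alpha cell marker genes had a region, among them Gcg and Irx1. Of 5 beta cell markers only Mafa had one, Ins1, Ins2, Pdx1 and Slc2a2 had none, and neither delta cell marker, Sst or Hhex, had one. Of 7 mesenchyme and fibroblast markers 6 had a region, with a summed level of 122.0 to 124.1 CPM over the empty vector libraries, 116.3 to 137.9 with Smndc1 shRNA and 110.5 to 124.8 with Atrx shRNA. Regions were also found at 4 of 4 endothelium, 3 of 4 leukocyte, 2 of 4 acinar cell and 2 of 3 duct cell markers. The part of other cell types in the Hox values was not tested.

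No region overlapped any of the start windows given for Hox genes. RefSeq start windows, from 250 bases before to 50 after a transcription start (GRCm38.p6, the build of the files), were given for 22 of the 39 genes, with 24 windows in all, and 0 of the 24 overlapped a region. Of the start windows of other coding genes 10440 of 21021 did, or 49.7%. The given windows need not hold every start of a gene. That of Hoxb8 (chr11:96281655-96281954, plus strand) lies inside the gene, whose bounds begin at 96279401. HoxB-r8 ends 221 bp before those bounds, and HoxB-r9 lies inside them. No start window was given at that end of Hoxb8, so the 0 of 24 does not cover it. The Hox windows held a median of 14.5 CpG, the dinucleotide of CpG island promoters, with a range of 4 to 45 in 300 bases, beside a median of 13 over the other coding windows. Among coding windows with at least 14 CpG, 80.3% overlapped a region, and among those with fewer 19.8% did. The windows of Hoxa13 and Hoxd13, the 2 richest in CpG, are shown first below because no region was found at them. The windows of the noncoding genes Hoxd3os1, which lies within the bounds of Hoxd3, and 5730596B20Rik, which lies within those of Hoxa3, follow because they were the only RefSeq start windows of any gene that a Hox region overlapped. Each is written 5′ to 3′ on the strand of its gene, with CG dinucleotides in capitals.
Hoxa13: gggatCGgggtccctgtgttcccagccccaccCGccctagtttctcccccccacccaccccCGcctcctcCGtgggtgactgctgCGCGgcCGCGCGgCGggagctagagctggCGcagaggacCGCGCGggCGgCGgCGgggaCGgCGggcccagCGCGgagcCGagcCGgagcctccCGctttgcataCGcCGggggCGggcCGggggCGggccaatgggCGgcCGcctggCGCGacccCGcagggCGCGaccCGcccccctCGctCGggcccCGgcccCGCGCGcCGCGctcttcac
Hoxd13: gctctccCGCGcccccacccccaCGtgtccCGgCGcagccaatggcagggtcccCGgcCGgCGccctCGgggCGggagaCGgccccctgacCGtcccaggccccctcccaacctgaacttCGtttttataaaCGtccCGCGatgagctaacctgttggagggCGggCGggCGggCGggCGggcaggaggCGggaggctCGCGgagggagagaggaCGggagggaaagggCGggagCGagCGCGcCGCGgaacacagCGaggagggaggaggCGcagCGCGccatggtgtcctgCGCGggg
Hoxd3os1: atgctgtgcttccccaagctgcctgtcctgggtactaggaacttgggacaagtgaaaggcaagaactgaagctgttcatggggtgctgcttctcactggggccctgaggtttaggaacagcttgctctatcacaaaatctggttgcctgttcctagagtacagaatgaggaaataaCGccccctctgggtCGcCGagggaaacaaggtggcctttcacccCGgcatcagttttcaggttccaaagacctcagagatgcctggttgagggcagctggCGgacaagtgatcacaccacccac
5730596B20Rik: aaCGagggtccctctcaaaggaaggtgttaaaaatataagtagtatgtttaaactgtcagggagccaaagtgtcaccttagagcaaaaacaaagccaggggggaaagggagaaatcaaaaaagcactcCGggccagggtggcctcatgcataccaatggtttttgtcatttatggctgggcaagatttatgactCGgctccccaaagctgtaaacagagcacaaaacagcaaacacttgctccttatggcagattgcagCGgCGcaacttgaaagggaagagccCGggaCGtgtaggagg
The Hoxa13 window (chr6:52260831-52261130, minus strand) holds 45 CpG at 81.0% G and C. The nearest region edge, that of HoxA-r6, lay 1.02 kb from the transcription start of Hoxa13. The Hoxd13 window (chr2:74667975-74668274, plus strand) holds 37 CpG at 74.3% G and C, with the nearest region edge 4.22 kb from the transcription start. The Hoxd3os1 window (chr2:74716081-74716380, minus strand) holds 5 CpG at 54.0% G and C, and HoxD-r5 overlapped it by 184 bp. The 5730596B20Rik window (chr6:52176905-52177204, plus strand) holds 7 CpG at 48.0% G and C, and HoxA-r2 overlapped it by 176 bp.

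**Figure D1:**
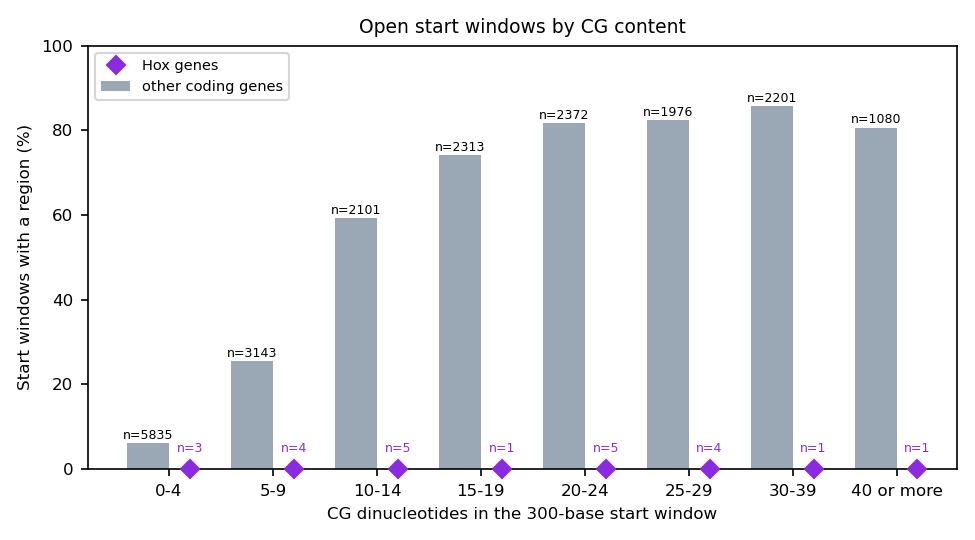
Share of RefSeq start windows that overlap a consensus region (y axis, %) by the number of CG dinucleotides in the 300-base window (x axis), for other coding genes (bars) and Hox genes (diamonds), with the number of windows at each mark. The share of other coding genes rose from 6.2% at 0 to 4 CpG to 85.6% at 30 to 39, while the Hox windows stood at 0 in every class.

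The Hox windows were at 0 in every class of CpG content. At 0 to 4 CpG, where 3 Hox windows fall, 6.2% of the other coding windows held a region, and at 5 to 9, with 4 Hox windows, 25.5% were. At 20 to 24 CpG, with 5 Hox windows, the share was 81.6%, and at 25 to 29, with 4, it was 82.4%. Open regions did lie near some Hox starts. Hoxd4, an anterior gene of HoxD, had a region edge 0.89 kb from its transcription start. Hoxa3, which acts in the pharyngeal arches, had one at 0.96 kb. Of the 24 starts with a given window, only these 2 had an edge within 1 kb, and 5 had one within 2 kb. The median distance was 5.8 kb, and the greatest was 36.63 kb, at Hoxd1. Among the genes without a given window were Hoxa4, Hoxb2, Hoxb3, Hoxb5, Hoxb6, Hoxb7, Hoxb9, Hoxb13, Hoxc5, Hoxc6, Hoxc8, Hoxc9, Hoxc10, Hoxc11, Hoxc12 and Hoxc13. The windows and distances thus leave out most genes of HoxB and HoxC. Closer regions may lie at their starts: HoxC-r7 was 291 bp from the bounds of Hoxc5, at an end whose kind was not given.

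For all 39 genes, both gene ends could be examined in windows from 1000 bp outside to 500 bp inside. Only 4 Hox genes, or 10.3%, had a region in an end window: Hoxa9, Hoxb8, Hoxb9 and Hoxc5. Of the other coding genes 54.2% had one, and of those of at most 5 kb, a class closer to the median Hox gene of 3737 bp, 32.4% did. A region inside the gene bounds was found in 8 Hox genes, or 20.5%, against 68.2% of other coding genes and 30.7% of those of at most 5 kb. These 8 were Hoxa3, Hoxb6, Hoxb8, Hoxc6, Hoxc13, Hoxd3, Hoxd4 and Hoxd10. The bounds of Hoxa3 and Hoxd3 are long, run over neighbouring Hox genes, and hold 7 of the 12 regions that lie inside a Hox gene. The other 11 regions of the spans lie between Hox genes. In all, 28 of the 39 genes had a region neither inside their bounds nor in an end window.

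The clusters differed in where their regions lay. HoxA (chr6:52155367-52260880, 11 genes) held 5 regions in its span and 3 in its flanks. Its longest stretch without a region, 34.8 kb, covers Hoxa9, Hoxa10 and Hoxa11 whole, posterior genes of limb and urogenital development. HoxB (chr11:96194316-96368254, 10 genes) held 7 and 5, and its 73.1 kb stretch without a region covers Hoxb5, Hoxb4, Hoxb3, Hoxb2 and Hoxb1, the anterior side of the cluster. HoxC (chr15:102921131-103036856, 9 genes) held 5 and 6, and its 64.1 kb stretch covers the posterior genes Hoxc9, Hoxc10, Hoxc11 and Hoxc12. HoxD (chr2:74668225-74765142, 9 genes) held 6 and 2, and in its 38.8 kb stretch lies Hoxd1. No end of the clusters was thus empty in all 4.

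Counted by length, the spans were not short of regions beside the chromosomes as a whole. They held 4.67 regions per 100 kb over 492.1 kb, the flanks held 4.0, and the chromosomes, from first to last region, held 3.16. The chromosomes include stretches with few genes, and the spans were not compared with stretches of like gene density. By cluster the number ran from 4.02 in HoxB to 6.19 in HoxD. Regions covered 2.37% to 3.18% of each span.

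**Figure D2:**
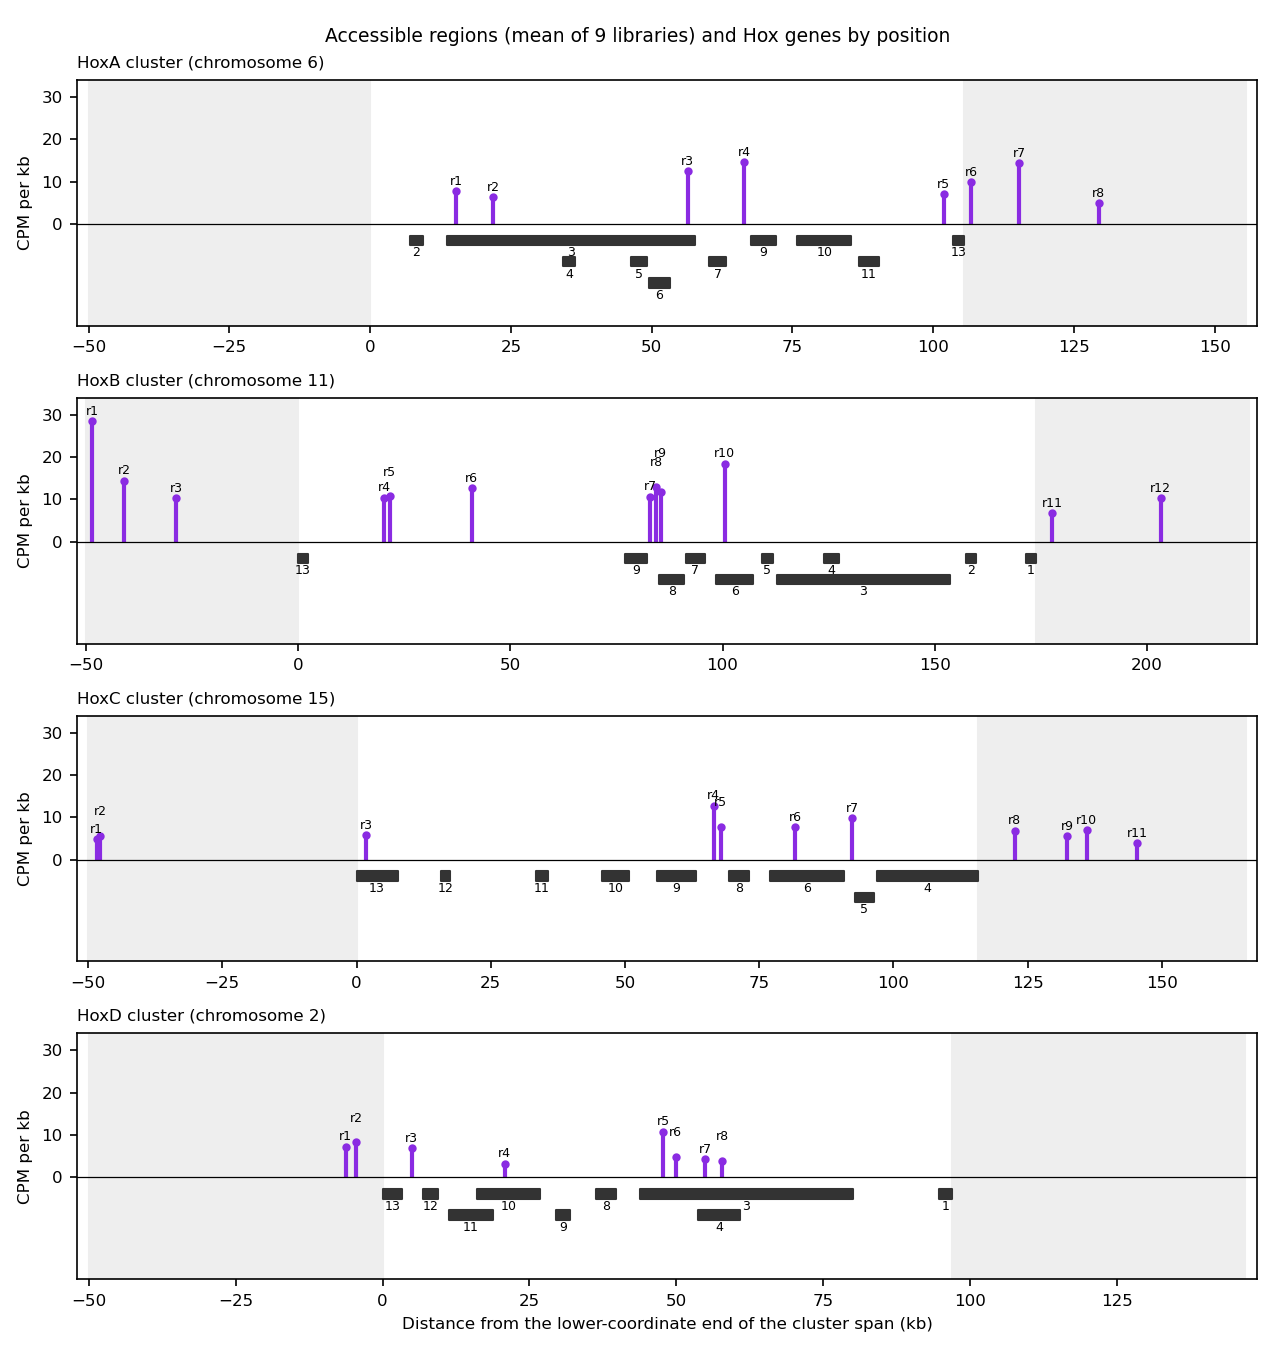
Mean level of each Hox region over the 9 libraries (y axis, TMM-normalised CPM per kb) by its distance from the lower-coordinate end of the cluster span (x axis, kb), with the bounds of the Hox genes reported as numbered blocks below the line and the 50 kb flanks in grey. HoxB-r1, in the flank of HoxB, reached 28.57 CPM per kb, and HoxB-r10, within Hoxb6, had the highest level inside a span at 18.44.

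Levels were low to moderate. Per kb of region, the 39 Hox regions had a median of 7.85 CPM over the 9 libraries, from 3.26 to 28.57, beside a median of 9.16 and a highest value of 342.77 over all regions. In the ranking of all regions 18 of the 39 were above the median and 1 was in the top 25%. Regions inside the spans had a median of 9.78 CPM per kb and those in the flanks 7.13. By cluster the median level per kb was 11.21 CPM in HoxB, 8.88 in HoxA, 6.85 in HoxC and 5.83 in HoxD. The number of regions above the median of all regions was 11 of 12 in HoxB, 4 of 8 in HoxA, 2 of 11 in HoxC and 1 of 8 in HoxD. The ranges of the 4 clusters overlap. Of the 52 regions in and around Irx1, Irx2 and Irx4, a homeobox cluster that alpha cells use, 14 were in the top 25%, and the median was 9.43 CPM per kb. The 31 regions around Irx3, Irx5 and Irx6, at a median of 6.76, and the 33 around the clustered protocadherins, at 7.3, had a lower median than the Hox regions. More of them were in the top 25%, however, with 4 of 31 and 8 of 33. These differences were not tested.

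Hox regions were also noisy, and more of them had the commonest width. Of the 39, 28 had the width of 501 bp that is the commonest in the table, or 71.8% against 53.4% of all regions, and the widest, HoxB-r8, had 865 bp. The median width was 501 bp both for the Hox regions and for all regions, and 562 bp in HoxA. The median count per library was 26 against 34 over all regions, and the median coefficient of variation within groups was 37.5% against 27.5%. Replicate 3 was the highest library of its group in 73 of 117 pairs of region and group, or 62.4%, against 39.9% over all regions. By cluster this share ran from 41.7% in HoxD to 70.8% in HoxA.

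In HoxA, the strongest region was HoxA-r4 (chr6:52221518-52222140), between Hoxa7 and Hoxa9 and 956 bp from Hoxa9, with 14.68 CPM per kb. Its levels were 12.44, 6.36 and 11.11 CPM with empty vector, 10.74, 5.42 and 10.83 with Smndc1 shRNA and 5.78, 10.69 and 8.93 with Atrx shRNA. The groups overlap fully, and replicate 2 was the lowest in the first 2 groups. HoxA-r3 (chr6:52211415-52212105) followed with 12.57 CPM per kb. It lies between Hoxa6 and Hoxa7, inside the long bounds of Hoxa3 and within the noncoding gene Hoxaas3. Its levels were 7.26, 8.95 and 10.8 CPM with empty vector, 8.68, 7.46 and 7.61 with Smndc1 shRNA and 5.78, 8.97 and 12.66 with Atrx shRNA. In the flank, HoxA-r7 lay 9479 bp beyond Hoxa13 with 14.36 CPM per kb, from 7.7 to 11.17 CPM over the 9 libraries.

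In HoxB, the strongest region of all lay in the flank within Ttll6, a tubulin polyglutamylase gene next to the cluster. This region, HoxB-r1 (chr11:96145509-96146071), stood at 15.25, 10.77 and 16.12 CPM with empty vector, 18.97, 21.18 and 15.39 with Smndc1 shRNA and 13.17, 13.94 and 19.96 with Atrx shRNA. Its groups overlap. Within the cluster the strongest was HoxB-r10 (chr11:96294502-96295167), inside Hoxb6 and the antisense gene Hoxb5os, and HoxB-r8 (chr11:96278315-96279179), between Hoxb9 and Hoxb8, was the next at 13.04 CPM per kb. HoxB-r8 ran from 8.29 to 12.97 CPM with empty vector, from 8.24 to 12.69 with Smndc1 shRNA and from 11.4 to 13.15 with Atrx shRNA. HoxB-r7, in the end window of Hoxb9 and 398 bp from the gene, was lower at 10.67 CPM per kb. Its levels were 2.37, 2.98 and 7.98 CPM with empty vector, 4.41, 6.27 and 10.66 with Smndc1 shRNA and 3.05, 4.39 and 6.01 with Atrx shRNA, with replicate 3 the highest in each group.

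In HoxC, HoxC-r4 (chr15:102987259-102987992), between Hoxc9 and Hoxc8, was the strongest with 12.72 CPM per kb, and its 3 groups lay at 9.32 ± 1.56 CPM with empty vector, 10.46 ± 2.01 with Smndc1 shRNA and 8.23 ± 0.21 with Atrx shRNA (SD, n = 3 each). HoxC-r7, in the end window of Hoxc5, had 9.78 CPM per kb, and its levels were 2.96, 3.89 and 5.48 CPM with empty vector, 5.59, 3.22 and 4.74 with Smndc1 shRNA and 3.53, 4.77 and 9.9 with Atrx shRNA. The strongest region of the flanks was HoxC-r10, within Gm30528, with 7.01 CPM per kb. In HoxD, HoxD-r5 (chr2:74715764-74716264), which overlaps the start window of Hoxd3os1 shown above, was the strongest with 10.83 CPM per kb. Its levels were 5.48, 5.71 and 5.79 CPM with empty vector, 5.59, 4.24 and 4.91 with Smndc1 shRNA and 3.53, 6.11 and 7.47 with Atrx shRNA, which overlap. HoxD-r3, between Hoxd13 and Hoxd12, had 6.83 CPM per kb, and HoxD-r2, in the flank within Gm31790, had 8.28.

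The clusters also hold microRNA genes, and the mature sequences below are shown because 1 of these genes was the only one that lay in an open region. Capitals mark the seed, bases 2 to 8 of the 5p arm, by which a microRNA pairs with its targets; miR-10a and miR-10b share one seed, and miR-196a and miR-196b another.
mmu-miR-10b-5p: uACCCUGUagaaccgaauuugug
mmu-miR-10a-5p: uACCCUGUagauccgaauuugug
mmu-miR-196a-5p: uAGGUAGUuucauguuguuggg
mmu-miR-196b-5p: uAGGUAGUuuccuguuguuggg
Mir10b, inside the bounds of Hoxd3 and Hoxd4, lay in HoxD-r8 (chr2:74725851-74726351), 1 of the weakest Hox regions at 3.94 CPM per kb, with a highest count of 22 in any library. This region was singled out after its values were seen. Its levels were 2.07, 2.85 and 1.88 CPM with empty vector, 1.03, 0.68 and 2.03 with Smndc1 shRNA and 2.41, 1.91 and 2.92 with Atrx shRNA, so the groups overlap. For the other microRNA genes the gap to the nearest region was 1194 bp at Mir615, 7941 bp at Mir196b, 11729 bp at Mir196a-1, 13825 bp at Mir196a-2 and 21998 bp at Mir10a.

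With Smndc1 shRNA the summed level of the 39 Hox regions was 219.9, 188.1 and 266.4 CPM, and with empty vector it was 163.8, 175.9 and 238.3. With Atrx shRNA it was 157.5, 198.9 and 249.3. The means were 224.8 ± 39.4, 192.6 ± 40.0 and 201.9 ± 46.0 CPM (SD, n = 3 each). The groups overlap, and replicate 3 was the highest in each. HoxB stood highest with Smndc1 shRNA, at 107.9, 89.3 and 127.9 CPM against 71.4, 71.5 and 107.5 with empty vector and 68.9, 85.1 and 104.2 with Atrx shRNA, and the 3 groups overlap. HoxA was at 47.2 ± 10.1, 44.4 ± 8.5 and 46.8 ± 13.2 CPM with Smndc1 shRNA, empty vector and Atrx shRNA. HoxC was at 44.5 ± 10.4, 37.5 ± 7.3 and 43.4 ± 11.9 in the same order, and HoxD at 24.7 ± 1.1, 27.2 ± 5.3 and 25.7 ± 3.4. Library contrast was evened out in a second fit with trended offsets, which correct each library by a loess curve against the mean natural log of the count. On that scale, over the 38 regions with enough counts, HoxB was at 108.2 ± 15.7 CPM with Smndc1 shRNA, 81.8 ± 18.8 with empty vector and 86.3 ± 15.0 with Atrx shRNA. The sum over all 38 was 217.8, 199.6 and 241.7 CPM with Smndc1 shRNA, 170.5, 184.7 and 216.6 with empty vector and 174.5, 197.3 and 224.9 with Atrx shRNA. The means were 219.7 ± 21.1, 190.6 ± 23.6 and 198.9 ± 25.2 CPM, so the gap between Smndc1 shRNA and empty vector was larger than either SD, although the libraries of the groups overlap. Differences between these sums were not tested.

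**Figure D3:**
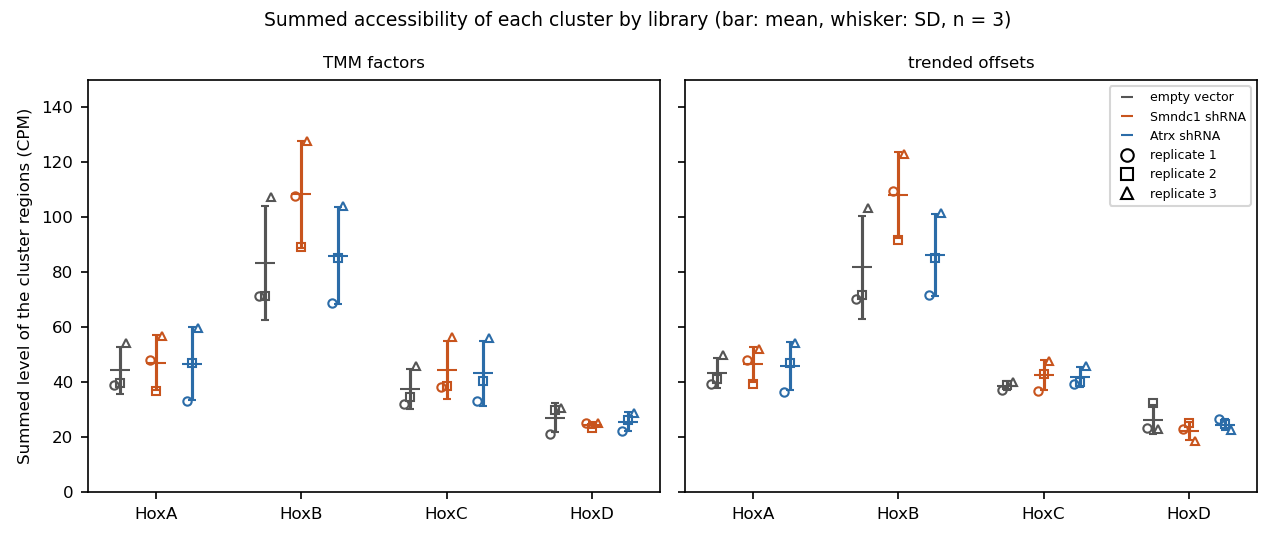
Summed level of the regions of each cluster (y axis, CPM) in every library by group, with TMM factors on the left and trended offsets on the right; bars and whiskers are the mean and SD of 3 libraries, and symbols give the replicate number. Replicate 3 was the highest library for HoxB in all 3 groups on both scales, and the groups overlap.

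No Hox region passed the test in any comparison. Differences are log2 fold changes from the quasi-likelihood F test of edgeR over 80345 regions, with TMM factors, their standard error (SE) and Benjamini-Hochberg adjusted p-values. Of the Hox regions 38 were tested, and HoxD-r4, within Hoxd10, fell below the count filter with 2 to 26 counts per library. With Smndc1 shRNA against empty vector 0 of 38 were called at an adjusted p under 0.05, where 0.156% of all regions were. With Atrx shRNA against empty vector 0 of 38 were called, where 0.0% of all regions were. With Smndc1 shRNA against Atrx shRNA 0 of 38 were called, where 0.0759% were. With trended offsets the Hox count was again 0 in each comparison, where 1.13%, 0.269% and 0.592% of all regions were called. At these shares fewer than 1 call among 38 regions would match the background. DESeq2 and limma voom also called 0. With Smndc1 shRNA against empty vector, however, DESeq2 gave no adjusted p for HoxB-r3 or HoxB-r4, at mean levels of 5.19 and 5.22 CPM. It leaves regions of low mean count out of its adjustment. Most Hox regions had a lower mean level than these 2, so the 0 of DESeq2 in that comparison does not cover them. Unadjusted p-values under 0.05 came for 2, 1 and 3 Hox regions in the 3 comparisons with edgeR and TMM factors, where 8.09%, 5.75% and 5.4% of all regions had one. With trended offsets the numbers were 5, 2 and 3, where 12.5%, 9.58% and 9.3% of all regions had one. DESeq2 gave 1, 1 and 2, where 6.84%, 4.74% and 4.34% of all regions had one, and limma voom gave 5, 1 and 3, where 8.19%, 5.47% and 4.87% did. The 2 comparisons with empty vector share its libraries.

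The depth leaves room for differences that were not detectable. With TMM factors the 95% interval of the fold change stayed within 2-fold in either direction for 14 of 38 regions with Smndc1 shRNA and for 15 with Atrx shRNA against empty vector, and within 4-fold for 35 in both. The median SE was 0.42 and 0.41 on the log2 scale, against 0.38 over all regions.

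Over the 38 regions the median log2 fold change was 0.21 with Smndc1 shRNA against empty vector, beside 0.02 over all regions, and 26 of 38 were above 0. It was 0.09 without replicate 1 of empty vector, 0.11 without replicate 3 of Smndc1 shRNA, 0.34 without replicate 2 of Smndc1 shRNA and 0.36 without replicate 3 of empty vector. With Atrx shRNA against empty vector it was 0.12, beside 0.01, and 28 were above 0. Its sign changed with single libraries: without replicate 3 of Atrx shRNA the median was -0.07, with 16 of 39 above 0, and without replicate 1 of empty vector it was -0.02, with 18 of 39 above 0. It was 0.02 without replicate 2 of empty vector, 0.24 without replicate 1 of Atrx shRNA and 0.32 without replicate 3 of empty vector. By cluster the medians with Smndc1 shRNA were 0.44 in HoxB, 0.29 in HoxC, 0.17 in HoxA and -0.2 in HoxD. Those with Atrx shRNA were 0.09, 0.42, 0.17 and 0.01 in the same order. Regions of 1 cluster come from the same libraries, and these medians carry no test.

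**Figure D4:**
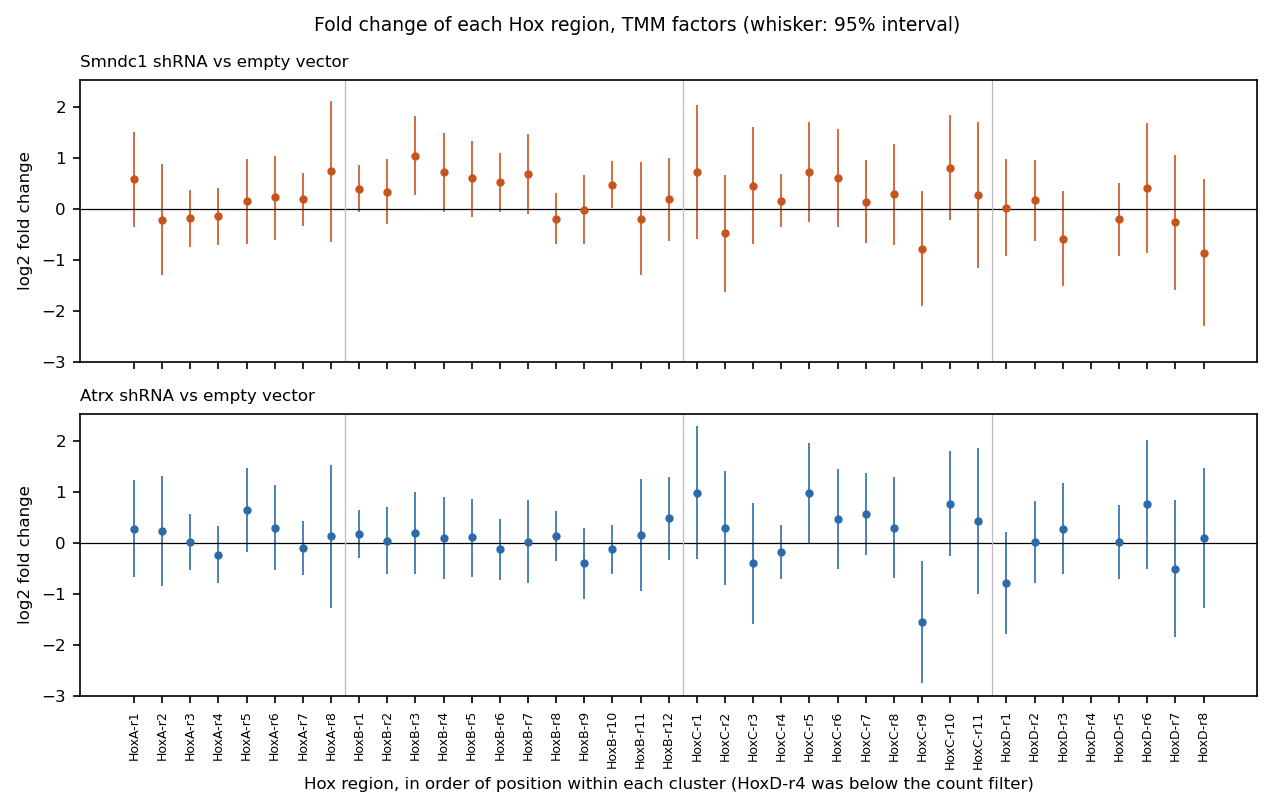
Log2 fold change of each of the 38 tested Hox regions with its 95% interval (y axis) against empty vector, for Smndc1 shRNA (upper panel) and Atrx shRNA (lower panel), in order of position within each cluster (x axis). The interval left out 0 at HoxB-r3 and HoxB-r10 with Smndc1 shRNA and at HoxC-r9 with Atrx shRNA, and no region passed after adjustment.

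The smallest p with Smndc1 shRNA against empty vector was at HoxB-r3 (chr11:96165367-96165867), in the flank within Ttll6 and 28448 bp from Hoxb13. Its levels were 9.85, 4.41 and 8.63 CPM with Smndc1 shRNA and 4.15, 2.59 and 4.38 with empty vector, and 3.37, 5.92 and 3.41 with Atrx shRNA. All 3 libraries with Smndc1 shRNA were above those with empty vector, by a narrow margin at replicate 2, and they overlap those with Atrx shRNA. The log2 fold change against empty vector was 1.05 ± 0.39 (SE; 95% interval 0.28 to 1.82), with an adjusted p of 0.365 in edgeR. Next was HoxB-r10, within Hoxb6, at 15.44, 14.24 and 16.92 CPM with Smndc1 shRNA, 11.85, 9.21 and 12.37 with empty vector and 9.47, 11.64 and 9.41 with Atrx shRNA. Every library with Smndc1 shRNA was above the other 6 there. The log2 fold change was 0.48 ± 0.23 against empty vector (95% interval 0.02 to 0.94, edgeR adjusted p = 0.587) and 0.61 ± 0.24 against Atrx shRNA (0.14 to 1.08, adjusted p = 0.63). The third was HoxB-r4, 17710 bp from Hoxb13 on the side of Hoxb9, at 0.72 ± 0.39 (edgeR adjusted p = 0.664), where the groups overlap. It was 0.17 without replicate 3 of Smndc1 shRNA, 0.46 without replicate 2 of empty vector and 1.17 without replicate 3 of empty vector.

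With Atrx shRNA against empty vector the smallest p was at HoxC-r9 (chr15:103053212-103053712), within Gm30528 and 16355 bp beyond Hoxc4. Its levels were 0.96, 1.34 and 2.11 CPM with Atrx shRNA, 5.04, 2.98 and 5.17 with empty vector and 1.91, 1.53 and 4.23 with Smndc1 shRNA. The libraries with Atrx shRNA were all below those with empty vector, at 6 to 34 counts per library over the 9. The log2 fold change was -1.56 ± 0.60 (95% interval -2.75 to -0.37) with an edgeR adjusted p of 0.733, and -1.79 ± 0.54 with an adjusted p of 0.127 with trended offsets. HoxC-r5, between Hoxc9 and Hoxc8, followed at 0.97 ± 0.49 (edgeR adjusted p = 0.874), and HoxD-r1, in the flank on the Hoxd13 side, at -0.79 ± 0.50 (adjusted p = 0.934), both with groups that overlap. At HoxC-r5 the difference was 0.58 without replicate 2 of Atrx shRNA, 0.62 without replicate 2 of empty vector and 1.42 without replicate 3 of empty vector, and at HoxD-r1 it was -0.49 without replicate 3 of empty vector.

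With Smndc1 shRNA against Atrx shRNA the smallest p was at HoxB-r10, given above, then at HoxB-r3 with 0.86 ± 0.39 (edgeR adjusted p = 0.82) and at HoxB-r6 with 0.66 ± 0.29 (adjusted p = 0.832). HoxB-r6 (chr11:96234828-96235631) lies in the long interval between Hoxb13 and Hoxb9. Its levels were 15.59, 8.81 and 15.23 CPM with Smndc1 shRNA, 6.42, 4.77 and 13.8 with Atrx shRNA and 5.63, 8.56 and 13.46 with empty vector. The groups overlap through replicate 3 of Atrx shRNA. Without that library the log2 fold change was 1.23 with TMM factors (edgeR adjusted p = 0.089), and without replicate 2 of Atrx shRNA it was 0.39. Without that library and with trended offsets the log2 fold change was 1.23 ± 0.31 with an edgeR adjusted p of 0.0257, and this was the 1 setting in which a Hox region was called. The library left out is 1 of the 3 with low contrast.

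**Figure D5:**
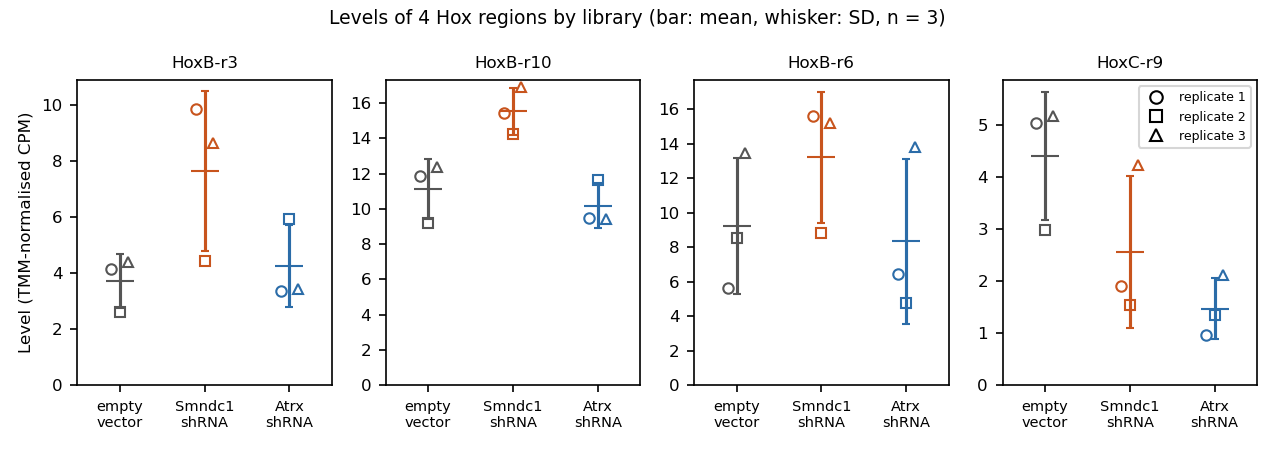
Levels of 4 Hox regions (y axis, TMM-normalised CPM) in every library by group (x axis), with the mean and SD of 3 libraries and symbols for the replicate number. At HoxB-r10 the libraries with Smndc1 shRNA, from 14.24 to 16.92, lie above the other 6, and at HoxC-r9 those with Atrx shRNA, from 0.96 to 2.11, lie below those with empty vector.

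All 3 libraries of one group lay beyond all 3 of the other at 3 Hox regions with Smndc1 shRNA against empty vector, where 12.8% of all regions did. With Atrx shRNA against empty vector this held at 2 (10.5% of all regions), and between the shRNAs at 6 (10.2%). With trended offsets the numbers were 4, 3 and 7, where 16.2%, 14.9% and 14.0% of all regions did so. As shares of 38, the Hox counts against empty vector are below those of all regions and the counts between the shRNAs are above them.

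Genes that act with or on the Hox clusters were examined through regions within 1000 bp of each gene. All 9 TALE cofactors had a region (50 in all), as did all 33 Polycomb genes (111 tested) and all 20 Trithorax and H3K27 demethylase genes (90). Of 16 retinoic acid genes 11 had one (59 regions); Cyp26a1, Cyp26c1, Aldh1a2, Crabp1 and Crabp2 had none. All 12 insulator and cohesin genes found in the annotation had a region (40 tested). Of the 8 ParaHox and Evx genes, the nearest relatives of the Hox genes, Cdx2, Cdx4, Pdx1, Gsx1, Gsx2 and Evx1 had none. Cdx1 had one, and Evx2, next to Hoxd13, had HoxD-r1. The median level per kb was 15.88 CPM over the Polycomb regions and 10.53 over the TALE regions.

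With TMM factors 0 regions of these lists were called in any comparison. With trended offsets 4 were called with Smndc1 shRNA against empty vector, 3 higher and 1 lower, and 0 in the other comparisons. These were 1 of 50 TALE regions, 2 of 90 Trithorax and demethylase regions and 1 of 59 retinoic acid regions, and 0 of the other lists, where 1.13% of all regions were called. The region at Kdm6b, an H3K27 demethylase gene, rose by 0.63 ± 0.16 on the log2 scale (edgeR adjusted p = 0.0207), from 21.91 ± 4.78 to 31.99 ± 4.0 TMM-normalised CPM (SD, n = 3). That at Mllt1, a gene of the super elongation complex, rose by 0.71 ± 0.20 (adjusted p = 0.0416), and that at Stra6, a retinol transporter gene, by 0.76 ± 0.22 (adjusted p = 0.0464). The region at Pknox1, a TALE gene, fell by 0.48 ± 0.12 (adjusted p = 0.00997), from 88.47 ± 23.05 to 61.22 ± 8.61 TMM-normalised CPM. With TMM factors their adjusted p-values were 0.513, 0.371, 0.309 and 0.61.

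None of these 4 calls held in every fit that left out 1 library. That of Kdm6b was lost without replicate 3 of Smndc1 shRNA (0.43, adjusted p = 0.252) and without replicate 1, 2 or 3 of empty vector (0.64, 0.7 and 0.56, with adjusted p = 0.123, 0.0794 and 0.0757). That of Pknox1 was lost without replicate 2 of Smndc1 shRNA (-0.38, adjusted p = 0.141) or of empty vector (-0.36, adjusted p = 0.311). That of Mllt1 held in 3 of 9 such fits, without replicate 1 or 3 of Atrx shRNA or replicate 2 of Smndc1 shRNA, and that of Stra6 in 1 of 9, without replicate 3 of Atrx shRNA; the highest adjusted p came without replicate 2 of empty vector, at 0.7 for Mllt1 (adjusted p = 0.234) and 0.69 for Stra6 (adjusted p = 0.278). Median differences of the lists with Smndc1 shRNA were between -0.02 and 0.52 with trended offsets, the highest over the 2 ParaHox and Evx regions, beside 0.01 over all regions.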

How the data were processed

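ATAC-seq counts were taken from 9 libraries in 3 groups of 3. The deposited table holds raw counts, whole numbers with no scaling, for 80827 consensus regions, and a second file the authors deposited gives their coordinates on mm10 (GRCm38). The submitters' processing notes name MACS2 2.2.7.1, deepTools 3.5.1, Bowtie2 2.4.4, bedtools 2.27.1 and SAMtools 2.8.0. Which step each one served, how regions were merged, and what a count is (a read, fragment or insertion) was not given in the sources used. Every count column was matched to a labelled sample.

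Hox genes were taken by symbol and placed with RefSeq gene bounds of GRCm38.p6, which give no strand or exon; start windows and microRNA sequences are also RefSeq's. Regions were tested in edgeR 4.0.16 (R 4.3.3) by quasi-likelihood F tests (TMM factors, filterByExpr with a minimum count of 10, robust dispersion, all 9 libraries, 1 coefficient per group). This covered 80345 regions, with Benjamini-Hochberg adjustment, and was checked on simulated data. Levels are TMM-normalised CPM. Trended offsets used a loess span of 0.3 and a pseudocount of 0.5. Alternatives were DESeq2 1.42.0, limma voom 3.58.1, other size factors and filters, fewer libraries, a replicate block and leaving out each library. P-values measure the spread between libraries of 1 cell line.

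Members, lists and tests were chosen with earlier results of these data known. Regions named are, per cluster, the 2 strongest per kb in the span and the 1 in the flanks, the 3 with the smallest p per comparison, any called, and those at a Hox start or, where no start was given, a gene end; HoxA-r2 and HoxD-r8 were added after their values were seen. Of the gene lists, called regions are named. Tables were made with Python 3.11.15. Single items withheld for evaluation are not reported here.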

Additional observations from a re-analysis of the deposited data

How the results depend on the processing

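The number of Hox regions called stayed at 0 in all 31 alternatives for each shRNA against empty vector. With Smndc1 shRNA, the 0 of DESeq2 covers only the Hox regions that it gave an adjusted p. For Smndc1 shRNA against Atrx shRNA it was 0 in 30 of 31 and 1 with trended offsets without replicate 3 of Atrx shRNA (HoxB-r6); leaving out other libraries gave 0, so the range over those fits is 0 to 1. The cause was not tested. The median log2 fold change over the Hox regions ranged from 0.08 to 0.36 with Smndc1 shRNA and from -0.07 to 0.32 with Atrx shRNA against empty vector, and from -0.16 to 0.36 between the shRNAs. The 7 regions with the smallest p (HoxB-r3, HoxB-r4, HoxB-r6, HoxB-r10, HoxC-r5, HoxC-r9 and HoxD-r1) kept the direction of their difference in every alternative run, in the comparison that named them; other named regions were not followed. With the replicate number as a block, 0 Hox regions were called in each comparison, with TMM factors and with trended offsets, although 1268, 231 and 614 of all regions were called with the block and TMM factors, and 2122, 792 and 1137 with the block and trended offsets. Same-numbered libraries correlated in their deviations from the group means by -0.024 to 0.441, and not every library correlated best with its own number, so the numbers were not treated as pairs. The replicate 3 libraries did go together, at 0.441, 0.343 and 0.386, and at 0.16, 0.138 and 0.204 with trended offsets. These were the highest values between groups on either scale, and the main fit leaves what these libraries share in the spread. Counts over all regions moved more: in the order Smndc1 shRNA against empty vector, Atrx shRNA against empty vector and Smndc1 shRNA against Atrx shRNA, 125, 0 and 61 were called with TMM factors, 910, 216 and 476 with trended offsets, 25, 0 and 16 with DESeq2, and 11, 0 and 7 with limma voom. Leaving out 1 library with TMM factors gave 1 to 609, 0 to 22 and 1 to 107. At a median of 26 counts per library, the 95% interval of the fold change exceeded 2-fold at most Hox regions.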
